A study of Rattus norvegicus with 6 samples.

Results

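The genes described here are 7 inflammatory genes: the cytokines Il1b, Il6 and Il10, the chemokines Ccl2 and Cxcl1, the prostaglandin enzyme gene Ptgs2 and the adhesion receptor gene Icam1. They were chosen by Ensembl rat identifier from a list that pairs each identifier with its symbol, and all 7 were found among the 21417 genes of the expression table. Expression had been measured by RNA-seq in colon cut from the joined site of male Sprague-Dawley rats weighing 200 to 230 g, 2 weeks after an end-to-end colonic anastomosis. Of the 6 libraries, 3 came from bowel closed by magnetic compression anastomosis (MCA), where magnets hold the ends pressed together until they have fused, and 3 control libraries came from bowel closed with conventional suture. Sprague-Dawley rats are an outbred strain, and the labels number the libraries as biological replicates without naming the animals. The age of the animals is not given in the sources used here, and no unoperated colon was analysed.

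In a wound, resident cells and arriving leukocytes release interleukin-1 beta (Il1b), which acts through its receptor on neighbouring cells to switch on further cytokines, chemokines, Ptgs2 and adhesion receptors, largely through the transcription factor NF-kB. Cxcl1 attracts neutrophils and Ccl2 attracts monocytes, and Icam1 on the vessel wall is bound by leukocyte integrins as those cells leave the blood. Interleukin-10 (Il10) restrains this response, and mice that lack it develop colitis.

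In all 7 genes the mean level was higher with MCA than with suture, and in 6 of them every MCA library lay above every suture library, as was the case for 5.26% of all 21417 genes. None passed the adjusted threshold of 0.05 when p-values were adjusted over all genes tested (limma, Benjamini-Hochberg). Mean Il1b was 90.8 FPKM with MCA and 9.29 FPKM with suture, and mean Cxcl1 was 33.3 and 3.45 FPKM. FPKM is the number of sequenced fragments scaled to the length of the gene and to the library total. Il6 and Il10 were low: both lay below 1 FPKM in all 3 suture libraries and above 1 FPKM in all 3 MCA libraries. The other 5 genes were above 1 FPKM in every library. In bulk tissue a difference in the number of cells of a type and a difference in RNA per cell cannot be told apart.

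**Figure D1:**
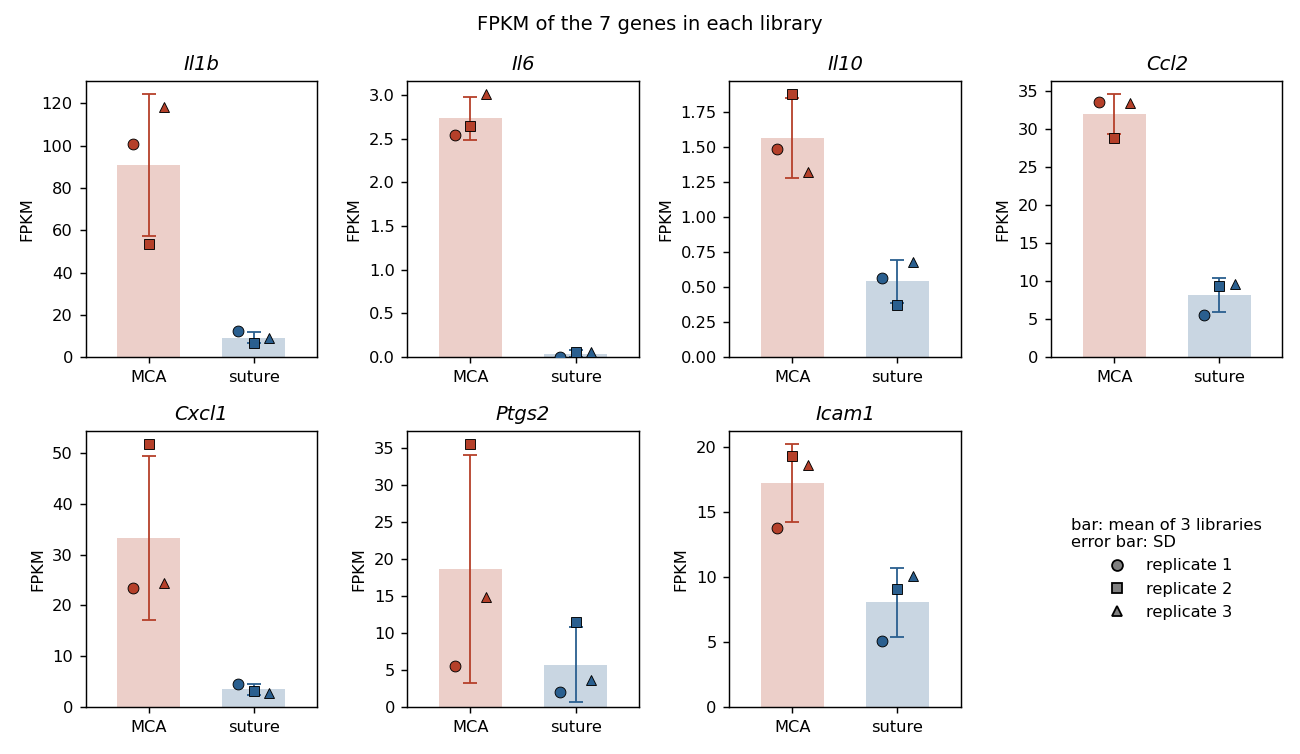
FPKM (vertical axes, linear, each gene on its own scale) of the 7 genes in the 3 MCA and 3 suture libraries; points are libraries, bars are means and error bars are SD (n = 3), with lower error bars stopped at 0. The 2 groups overlap in Ptgs2 alone among these genes, where suture replicate 2 at 11.5 FPKM lies above MCA replicate 1 at 5.52 FPKM.

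Stretches of sequence upstream of 5 of the 7 genes are shown because these promoters are textbook examples of inflammatory control. The mean of each of the 5 genes was higher with MCA, and whether they share control here was not tested. The stretches come from RefSeq on the GRCr8 build and run 5′ to 3′ on the gene's strand. The RefSeq promoter table was matched by symbol and had an entry for 5 of the 7 genes, leaving out Il10 and Ccl2. The 250 bases before each annotated start were searched on both strands for a loose NF-kB motif (GGNNNTTCC), a C/EBP motif (TTNNGNAA) and the cyclic AMP response element (TGACGTCA). NF-kB matches can overlap C/EBP matches, as they do in Icam1. Capitals mark the matched bases, and each stretch extends 12 bases beyond its outermost matches.
Il1b, chr3:137036681-137036712, minus strand: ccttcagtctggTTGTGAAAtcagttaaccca
Il6, chr4:5894622-5894749, minus strand: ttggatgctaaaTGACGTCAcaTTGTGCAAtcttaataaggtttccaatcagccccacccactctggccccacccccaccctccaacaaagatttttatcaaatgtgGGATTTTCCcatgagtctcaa
Cxcl1, chr14:17479384-17479435, minus strand: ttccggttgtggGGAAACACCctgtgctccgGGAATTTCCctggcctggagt
Ptgs2, chr13:64713911-64713942, plus strand: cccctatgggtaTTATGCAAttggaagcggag
Icam1, chr8:27829612-27829716, plus strand: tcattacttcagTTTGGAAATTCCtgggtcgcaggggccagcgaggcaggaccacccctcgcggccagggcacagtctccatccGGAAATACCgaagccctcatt

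The NF-kB motif was found upstream of Il6, at -67 to -59 from the start, of Cxcl1, at -102 to -94 and -83 to -75, and of Icam1, at -218 to -210 and -149 to -141. It occurs in 15.4% of the 33469 promoters of the table. A C/EBP match lay upstream of Il1b, Il6, Ptgs2 and Icam1, and 37.2% of promoters hold one. Il6 alone of the 5 held the full cyclic AMP response element TGACGTCA, at -162 to -155, which is present in 1.59% of promoters. Shorter or variant forms of this element were not searched for, so the other promoters may hold them. A match describes the letters in these windows and is not evidence of binding, and the RNA data do not measure binding.

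Il1b (ENSRNOG00000004649) was the most abundant of the 7 genes with MCA. Its level was 101, 53.4 and 118 FPKM in MCA replicates 1, 2 and 3, and 12.2, 6.55 and 9.16 FPKM in suture replicates 1, 2 and 3. The lowest MCA library was 4.39 times the highest suture library, and replicate 2 was the lowest of its group with either method. MCA averaged 90.8 ± 33.5 FPKM (SD, n = 3) and suture 9.29 ± 2.80 FPKM (SD, n = 3), which is a ratio of 9.77. On the log2(FPKM + 1) scale, which understates folds of low genes, the fold was 3.12 with a 95% interval of 2.25 to 3.99. Its limma adjusted p was 0.101 (unadjusted 6.46e-05). In this fit 7 of 13591 genes tested had a larger fold in favour of MCA, a number that ran from 0 to 49 over the settings tried.

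Il6 (ENSRNOG00000010278), which drives the acute-phase response and B cell and T cell differentiation, was nearly undetected after suture. It measured 2.55, 2.64 and 3.01 FPKM in the 3 MCA libraries, and 0, 0.0612 and 0.0634 FPKM in suture replicates 1, 2 and 3. Behind these values stood 42, 41 and 49 fragments with MCA and 0, 1 and 1 with suture, recovered from the deposited values. The MCA libraries were therefore alike, while the suture level was set by 2 fragments in all. At 0 fragments, suture replicate 1 allows a level of up to 0.185 FPKM (3 fragments, counting error only). The ratio of pooled fragment rates was 66.1, with an exact 95% counting interval of 17.9 to 551 that leaves out the spread between animals. The log2 fold on log2(FPKM + 1) was 1.84, with a 95% interval of 1.31 to 2.37 and a limma adjusted p of 0.101. Il6 reached the mean of 1 FPKM needed for this fit only through its MCA values. With no filter the 95% interval was 1.5 to 2.18 and the limma adjusted p 0.127. The size of the log2 fold depends on the value added before taking logs: it was 4.35 when 0.1 was added instead of 1, and 5.42 with limma-voom on the recovered fragments.

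Il10 (ENSRNOG00000004647) was the lowest of the 7 genes with MCA. It was at 1.49, 1.87 and 1.32 FPKM in MCA replicates 1, 2 and 3 and at 0.565, 0.375 and 0.680 FPKM in the suture replicates. The groups did not overlap, and the recovered fragments were 14 to 19 per MCA library and 4 to 7 per suture library. These fragment numbers for Il10 may be short by a whole factor, since its recovered length of 682 bases may be a fraction of the length the authors used. The means were 1.56 ± 0.286 FPKM (SD, n = 3) and 0.540 ± 0.154 FPKM (SD, n = 3), a ratio of 2.89. The log2 fold was 0.73 (95% interval 0.17 to 1.29) and the limma adjusted p 0.779. With no filter the 95% interval was 0.33 to 1.14 and the limma adjusted p 0.554. As for Il6, the fold grew when less was added before taking logs, to 1.39 with 0.1, and was 1.47 with limma-voom. Il6 and Il10 passed the filter of a mean of 1 FPKM, with means of 1.39 and 1.05 FPKM over the 6 libraries, only through their MCA values.

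Within a library, the level of Il1b relative to Il10 sets a cytokine that starts inflammation beside one that restrains it. The log2 ratio of Il1b to Il10, with 1 FPKM added to each, was 5.36, 4.24 and 5.68 in the MCA libraries and 3.07, 2.46 and 2.60 in the suture libraries. Both cytokines were higher with MCA, and Il1b by the larger factor, so that every MCA ratio exceeded every suture ratio. The difference in means was 2.39 log2 units (two-sided exact permutation test, p = 0.1, the smallest that 3 against 3 libraries allow). Because Il10 was low, the size of this difference depends on the value added. It was 1.85 log2 units when 0.1 FPKM was added to each gene.

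Of the chemokines, Cxcl1 (ENSRNOG00000002802) resembled Il1b in the size of its difference. Its level was 23.5, 51.9 and 24.5 FPKM in MCA replicates 1, 2 and 3 and 4.58, 3.11 and 2.65 FPKM in suture replicates 1, 2 and 3. MCA replicate 2 carried about double the level of the other MCA libraries, with a highest-to-lowest ratio of 2.21 in that group, and yet the lowest MCA library was 5.12 times the highest suture library. The means were 33.3 ± 16.1 FPKM (SD, n = 3) and 3.45 ± 1.01 FPKM (SD, n = 3), a ratio of 9.65. The log2 fold was 2.87 (95% interval 2.03 to 3.71) with a limma adjusted p of 0.101, and 14 of the 13591 genes tested had a larger fold (7 to 51 over the settings tried). Without MCA replicate 2 the ratio of means was 6.95, the log2 fold 2.51 and the number of genes with a larger fold 45.

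Ccl2 (ENSRNOG00000007159) was the steadiest of the abundant genes among the MCA libraries, at 33.6, 28.9 and 33.4 FPKM. The suture libraries had 5.54, 9.35 and 9.60 FPKM, with replicate 1 lowest. The MCA libraries were thus all at least 3.01 times the highest suture library. The means were 32.0 ± 2.65 FPKM (SD, n = 3) and 8.16 ± 2.27 FPKM (SD, n = 3), a ratio of 3.92. The log2 fold was 1.88 (95% interval 1.27 to 2.48), again with a limma adjusted p of 0.101. Relative to each other within a library, the monocyte chemokine Ccl2 and the neutrophil chemokine Cxcl1 did not separate the groups. The log2 ratio of Ccl2 to Cxcl1 was 0.50, -0.82 and 0.44 in the MCA libraries and 0.23, 1.33 and 1.54 in the suture libraries (two-sided exact permutation test of the difference of -0.995, p = 0.3).

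Ptgs2 (ENSRNOG00000002525) encodes the inducible cyclooxygenase that makes prostaglandin precursors, and it varied most within groups. Its level was 5.52, 35.5 and 14.8 FPKM in MCA replicates 1, 2 and 3 and 2.00, 11.5 and 3.62 FPKM in suture replicates 1, 2 and 3. Replicate 1 was lowest and replicate 2 highest with either method, and the highest library was 6.43 times the lowest with MCA and 5.74 times with suture. The means were 18.6 ± 15.3 FPKM (SD, n = 3) and 5.70 ± 5.06 FPKM (SD, n = 3), a ratio of 3.27 (two-sided exact permutation test, p = 0.2). The log2 fold of 1.48 had a 95% interval of -0.26 to 3.22, which holds both no difference and a difference larger than that of Ccl2 (limma adjusted p = 1.00). The ratio of means was 1.79 without MCA replicate 2 and 6.63 without suture replicate 2. Both libraries also had the highest scores on the first principal component of the 13591 genes, which held 48.5% of the variance. MCA replicate 2 scored 79.6 and suture replicate 2 scored 25.1, against -39.4 to -6.72 for the other 4 libraries. On this axis MCA replicate 2 stood far from the rest, while suture replicate 2 was nearer to suture replicate 3 (-6.72) than to MCA replicate 2. With libraries weighted by estimated quality, which gave MCA replicate 2 little weight, the log2 fold of Ptgs2 was 0.59. The part of this axis in the Ptgs2 result was not tested.

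Icam1 (ENSRNOG00000020679) showed the smallest ratio of means of the 7 genes. It was at 13.8, 19.3 and 18.6 FPKM in MCA replicates 1, 2 and 3 and at 5.06, 9.10 and 10.1 FPKM in the suture replicates. The groups did not overlap, but the lowest MCA library was only 1.37 times the highest suture library. The means were 17.2 ± 3.02 FPKM (SD, n = 3) and 8.07 ± 2.65 FPKM (SD, n = 3), a ratio of 2.14. The log2 fold was 1.04 (95% interval 0.35 to 1.74) with a limma adjusted p of 0.608.

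**Figure D2:**
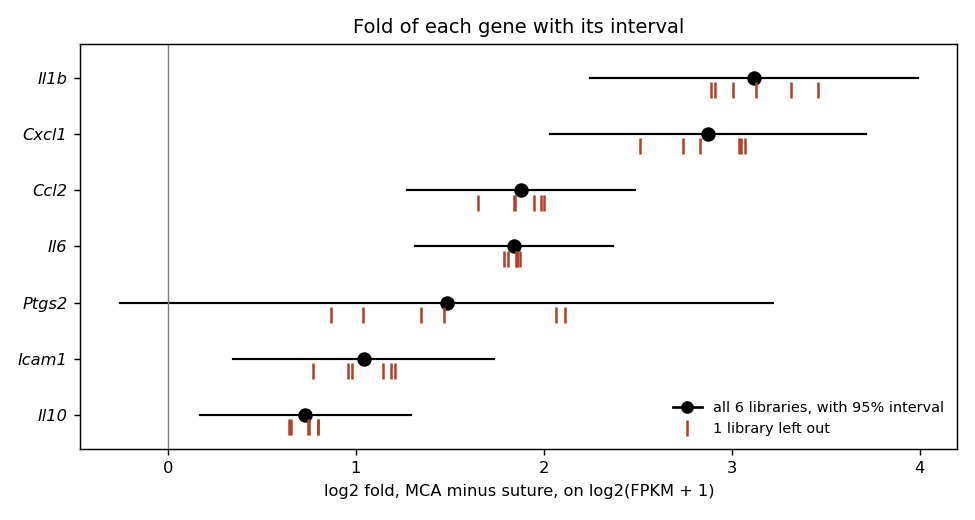
Log2 fold of MCA minus suture on the log2(FPKM + 1) scale (horizontal axis) for each gene; black points and lines are the limma estimate from 6 libraries and its 95% interval, and red ticks are the estimates with 1 library left out. All estimates are above 0, and the interval of Ptgs2 (-0.26 to 3.22) is the one that includes 0.

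Counts over the 7 genes were read against the whole table without a filter, so that low genes were not selected by their MCA values. A log2 fold above 0 was found in 7 of 7 genes, and in 46.3% of all 21417. An unadjusted limma p under 0.05 with a higher mean under MCA held for 6 of the 7, against 3.01% of all genes. No gene of the table passed the adjusted threshold, with or without the filter (0% called, limma). With the filter, 667 of 13591 genes, 4.91%, had an unadjusted p under 0.05, and limma-voom on recovered fragments gave 644 such genes and likewise none past the adjusted threshold. The median log2 fold was 1.84 over the 7 genes and -0.01 over all 21417. The 7 genes were listed with earlier results of these data known, so these counts describe them and are no independent evidence. The adjusted threshold was crossed in 1 setting, where limma weighted libraries by their estimated quality: 35 genes passed, 0.258% of those tested, with Il1b, Ccl2 and Cxcl1 among them, and Il6, which had entered that test only through its MCA values. With the same weighting and no filter, an alternative added after the data were seen, 0 of 21417 genes passed (0% called, 1731 at an unadjusted p under 0.05), and the adjusted p was 0.0557 for Il1b, 0.0507 for Il6, 0.0906 for Ccl2 and 0.0749 for Cxcl1. The weights estimated with the filter were uneven, with 4.31 for MCA replicate 1 and 0.290 for MCA replicate 2.

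**Figure D3:**
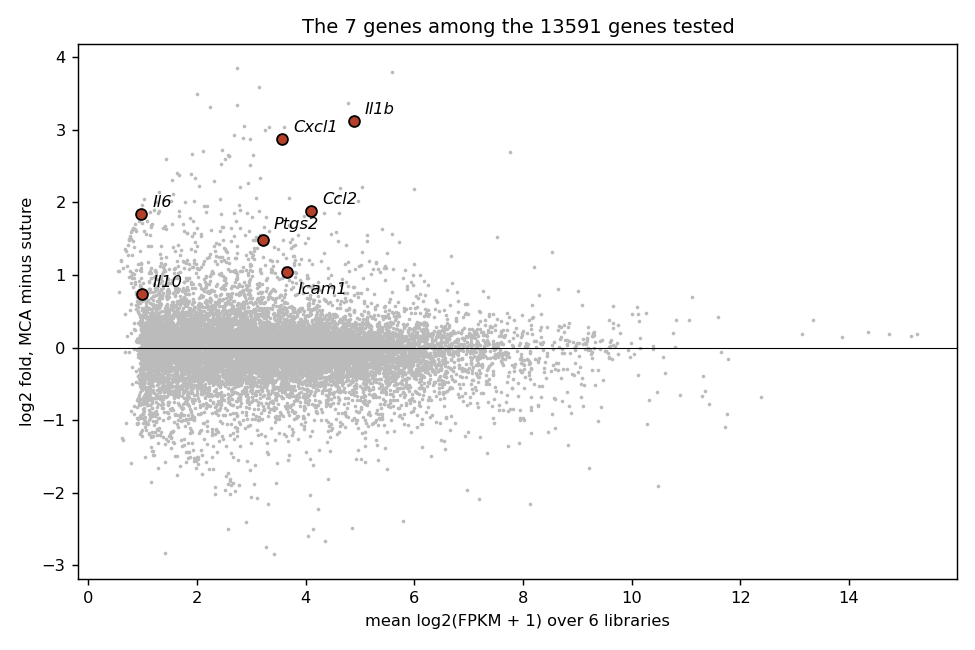
Log2 fold of MCA minus suture (vertical axis) against mean log2(FPKM + 1) over the 6 libraries (horizontal axis) for the 13591 genes tested; grey points are genes and red points the 7 inflammatory genes. Il1b (3.12) and Cxcl1 (2.87) lie near the top of the cloud, and Il10 (0.73) and Icam1 (1.04) lie nearer to its bulk.

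The order of the mean levels, which FPKM allows since it is scaled to gene length, differed between the groups. With MCA, Il1b stood above all the others in mean FPKM, followed by Cxcl1, Ccl2, Ptgs2 and Icam1, whose neighbours in that order overlapped in range, and then by Il6 and Il10, each below its neighbour in every library. With suture, mean FPKM fell in the order Il1b, Ccl2, Icam1, Ptgs2 and Cxcl1, with overlapping neighbours, and Il10 lay above Il6. This suture order of the first genes held for the means and not within each library: Il1b was the highest in suture replicate 1 only. Il6 therefore stood above Il10 in the MCA libraries and below it in the suture libraries.

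The spread of the recovered fragments between libraries of a group was set beside counting error, as a description that takes fragments for independent molecules. Such a figure grows with the number of fragments, so it does not compare relative spread between groups or genes. The variance was 260 times what counting alone gives for Il1b with MCA and 18.4 times with suture, and 856 and 305 times for Ptgs2. For Cxcl1 it was 111 and 4.22 times, for Icam1 21.8 and 35.6 times, and for Ccl2 2.77 and 8.20 times. For Il6 the figures were 0.357 and 0.507, so that no spread between animals beyond counting was detectable at this depth. Il10 gave 0.542 and 0.463 on fragment numbers that may be short by a whole factor. As a share of mean FPKM, the SD of Il1b was 36.9% with MCA and 30.2% with suture, and that of Ptgs2 was 82.4% and 88.9%.

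Nor did the 7 genes go up and down together within a group. In MCA replicate 2, log2(FPKM + 1) of Ptgs2 was 1.23 and of Cxcl1 0.72 above the group mean, while Il1b was 0.68 below it. In suture replicate 2, Ptgs2 again deviated from its group mean by 1.16 and Il1b by -0.41, but Cxcl1 by -0.09. Suture replicate 1 had the lowest Ccl2, Icam1 and Ptgs2 of its group, with deviations of -0.45, -0.54 and -0.89, and the highest Il1b and Cxcl1, with 0.39 and 0.35. Because the groups stand apart in 6 of the 7 genes, no correlation between genes across the 6 libraries is given, and 3 libraries are too few for one within a group.

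**Figure D4:**
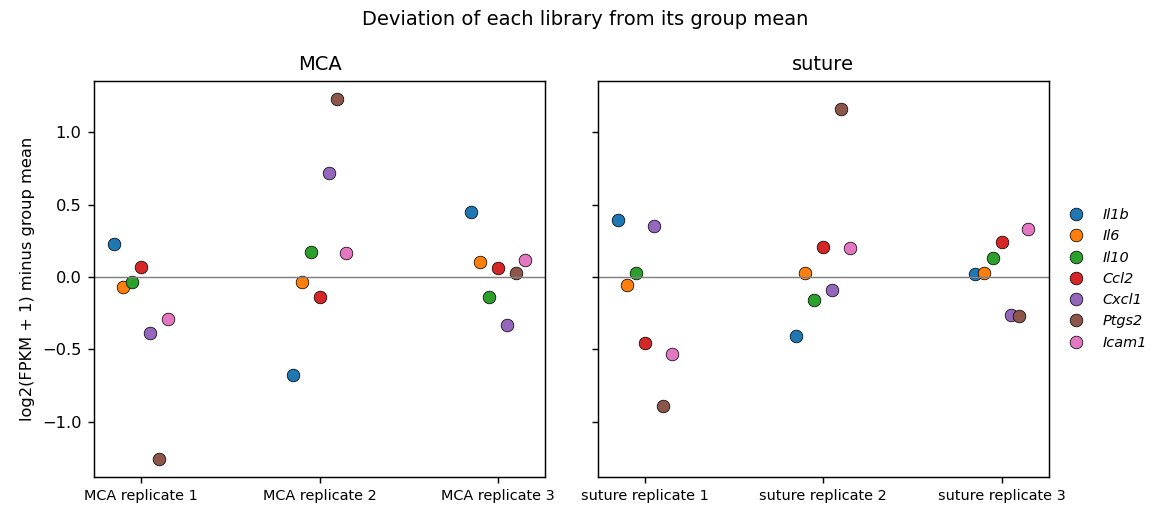
Deviation of log2(FPKM + 1) from the group mean (vertical axis) in each library (horizontal axis) for the 7 genes, coloured by gene. Ptgs2 lies highest in replicate 2 of both groups (1.23 and 1.16), where Il1b lies lowest (-0.68 and -0.41).

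The 6 libraries had similar depth, 14867454 to 15791079 fragments as recovered from the FPKM values, and no 2 were copies of one another. Markers of leukocytes, epithelium, muscle and other cell types, and further genes of the same pathways, are not analysed here, because the table gives identifiers without symbols. The labelled tissue was for that reason not checked against its markers, and the part of cell composition in these differences was not tested.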

How the data were processed

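RNA-seq libraries from 6 samples were used, grouped by the descriptions in the labels. Per the labels' protocols, TRIzol RNA went into NEBNext Ultra libraries read on a DNBSEQ-T7, and the deposited values are FPKM made by the authors. The submitters' processing notes name limma without a role, and aligner, counter, build and strand setting are not given in these sources. Full-precision FPKM gave back whole fragments for all 21417 genes within 1e-07 of a fragment (relative above 1), up to a common factor with gene length. The recovery and the limma procedure were also run on simulated data, as a check of the code. The noise simulated for limma was independent between genes and libraries, so that run cannot show how limma performs on these libraries.

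The 13591 genes averaging at least 1 FPKM were tested on log2(FPKM + 1) with limma 3.58.1 in R 4.3.3 (no covariates, mean-variance trend, two-sided, Benjamini-Hochberg over genes tested). Intervals are at 95%. Exact permutation tests used all 20 splits. P-values set the difference between groups against the spread between these libraries, whose animals the labels do not name. Other software was Python 3.11.15, numpy 2.4.6, pandas 2.3.3, scipy 1.17.1 and matplotlib 3.10.9.

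The genes and lists were chosen with earlier results of these data known. All 7 genes are named, by Ensembl identifiers whose symbols come from that list, as the reference tables hold no Ensembl identifiers. Pathway and cell-type lists were fixed by symbol and could not be run. Alternatives were other pseudocounts, filters, scalings, weights, a replicate block, fragments and leaving out each library.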

Additional observations from a re-analysis of the deposited data

How the results depend on the processing

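All 7 folds stayed above 0 in every setting in which the gene was tested. The adjusted threshold was crossed in 1 setting, array quality weights with the filter at 1 FPKM, which gave 35 genes in place of 0 and log2 folds of 3.35 for Il1b (adjusted p 0.0084, and 0.0084 to 0.415 over 17 settings), 1.79 for Il6 (0.019, 0.019 to 0.415 over 16), 1.85 for Ccl2 (0.0191, 0.0191 to 0.43) and 2.64 for Cxcl1 (0.0179, 0.0179 to 0.415). Il6 passed that filter only through its MCA values, and with these weights and no filter 0 genes passed. The weights were estimated from the same libraries, and the log2 fold of Ptgs2 was then 0.59. With 1 library left out, log2 folds ran from 2.89 to 3.46 for Il1b, 1.79 to 1.88 for Il6, 0.64 to 0.80 for Il10, 1.65 to 2.00 for Ccl2, 2.51 to 3.07 for Cxcl1, 0.87 to 2.11 for Ptgs2 and 0.77 to 1.21 for Icam1, all with limma adjusted p above 0.05. The replicate number as a block also gave 0 genes past the adjusted threshold, with a log2 fold of 1.48 and a standard error of 0.21 for Ptgs2 (0.73 without the block), a 95% interval of 0.94 to 2.02 that no longer holds 0, an unadjusted limma p of 0.000892 and an adjusted p of 0.245. The block moved the genes at an unadjusted limma p under 0.05 from 667 to 1141 of 13591. Of the same 13591 genes the number was 1360 with array weights and 1065 without MCA replicate 2. With the filter at 5 FPKM, which tests fewer genes, it was 334 of 9229. The labels do not link numbers to animals, so the numbers were not taken as pairs. The deviations of same-numbered libraries correlated at r = 0.42 for replicate 1, 0.53 for replicate 2 and -0.0016 for replicate 3. MCA replicate 3 was closest to suture replicate 1 (0.28). With 3 libraries a group, these values cannot decide whether the numbers mark pairs. The filter at 5 FPKM leaves out Il6 and Il10. The count of genes without overlap, added after the data were seen, was 6 or 7 of 7 with 1 library left out, and 7 without MCA replicate 1 or suture replicate 2, where Ptgs2 joined. The share of all 21417 genes was then 7.02% to 14.1% (7.60% and 8.39% without those 2 libraries), against 5.26% with all 6. The log2 ratio of Il1b to Il10 differed by 1.85 with a pseudocount of 0.1. Few fragments limit Il6 with suture, and may limit Il10, whose recovered numbers may be short by a whole factor.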
